A study of Mus musculus with 36 samples.

Results

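The RNA levels of 9 genes that are widely used to recognise enteric neurons (Tubb3, Elavl4, Ret, Snap25, Stmn2, Uchl1, Prph, Nefl and Syp) were followed in mouse enteric glial cell (EGC) cultures. The genes were chosen by name, with earlier results of these data known, and all 9 were found among the 43472 gene symbols of the count table. The cultures were primary, wild-type EGCs grown from neurospheres of the embryonic C57BL/6J intestine, and were either left unstimulated, exposed to conditioned medium of healthy colon cells (H-CM) or exposed to conditioned medium of cells from orthotopic MC38 tumors (TME-CM). RNA was taken after 6 h, 12 h or 24 h, with 4 libraries in each of the 9 groups and 36 libraries in all. MC38 is a mouse colon carcinoma line, and the tumor medium held the products of every cell of the digested tumor, so the cell that released an active factor is not defined by the groups. The labels do not say whether the 4 libraries of a group came from separate cultures, and p-values then measure only the spread between these libraries.

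Enteric neurons and enteric glia arise from the same neural crest progenitors, which settle in the embryonic gut, express the receptor Ret and give rise to both lineages. Neurospheres hold such progenitors and their progeny, and neuronal RNA in glial cultures grown from them can come from neurons, from cells on the way to becoming neurons or from glia that transcribe these genes at a low level. The 9 genes cover the parts of a neuron: tubulin, stathmin and intermediate filaments of the axon (Tubb3, Stmn2, Nefl, Prph), proteins of synaptic vesicle release (Snap25, Syp), proteins of the cell body (Elavl4, Uchl1) and a growth factor receptor (Ret).

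Library totals ranged from 13518 to 5244763 counts at 6 h, from 2005239 to 5961933 at 12 h and from 1608018 to 7552509 at 24 h. The library with 13518 counts, H-CM 6 h replicate 4, held 11 counts of the 9 genes together, whereas the libraries of 12 h and 24 h held between 838 and 3647. The library TME-CM 24 h replicate 2 stood apart at 24 h: 35.1% of its counts fell on a single symbol, Yam1, against 14.8%, 13.7% and 15.1% in the other libraries of its group. Unstimulated 24 h replicate 1 had a similar share (30.7%), and the remaining libraries of 24 h lay between 12.7% and 18.5%.

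All 9 genes were detected, at levels that differed widely between them. Levels are given as CPM (counts per 1000000 counts of the library, scaled between libraries with TMM factors). The kit reads each transcript at its 3′ end, so that counts were not divided by transcript length. Over the 24 libraries of 12 h and 24 h, Uchl1 had the highest level of the 9 genes in 24 of 24 libraries, with group means between 179 and 204 CPM. Elavl4 (63.9 to 83.6 CPM), Tubb3 (51.1 to 81.8 CPM) and Stmn2 (36.3 to 56.8 CPM) followed, with overlapping ranges. Nefl (8.43 to 28 CPM) and Ret (11.1 to 19.4 CPM) lay lower, and Prph (6.70 to 10.5 CPM), Syp (3.66 to 6.09 CPM) and Snap25 (3.32 to 5.30 CPM) were the lowest 3 in 17 of the 24 libraries. Of 216 values at 12 h and 24 h, 1 was a count of 0, against 8 of 108 values at 6 h. When the 9 group means of a gene were put in order, neighbours differed by less than the larger of their SDs throughout for Tubb3, Elavl4, Ret, Stmn2, Uchl1, Prph and Nefl, and for 7 of 8 neighbouring pairs of Snap25 and of Syp.

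**Figure D1:**
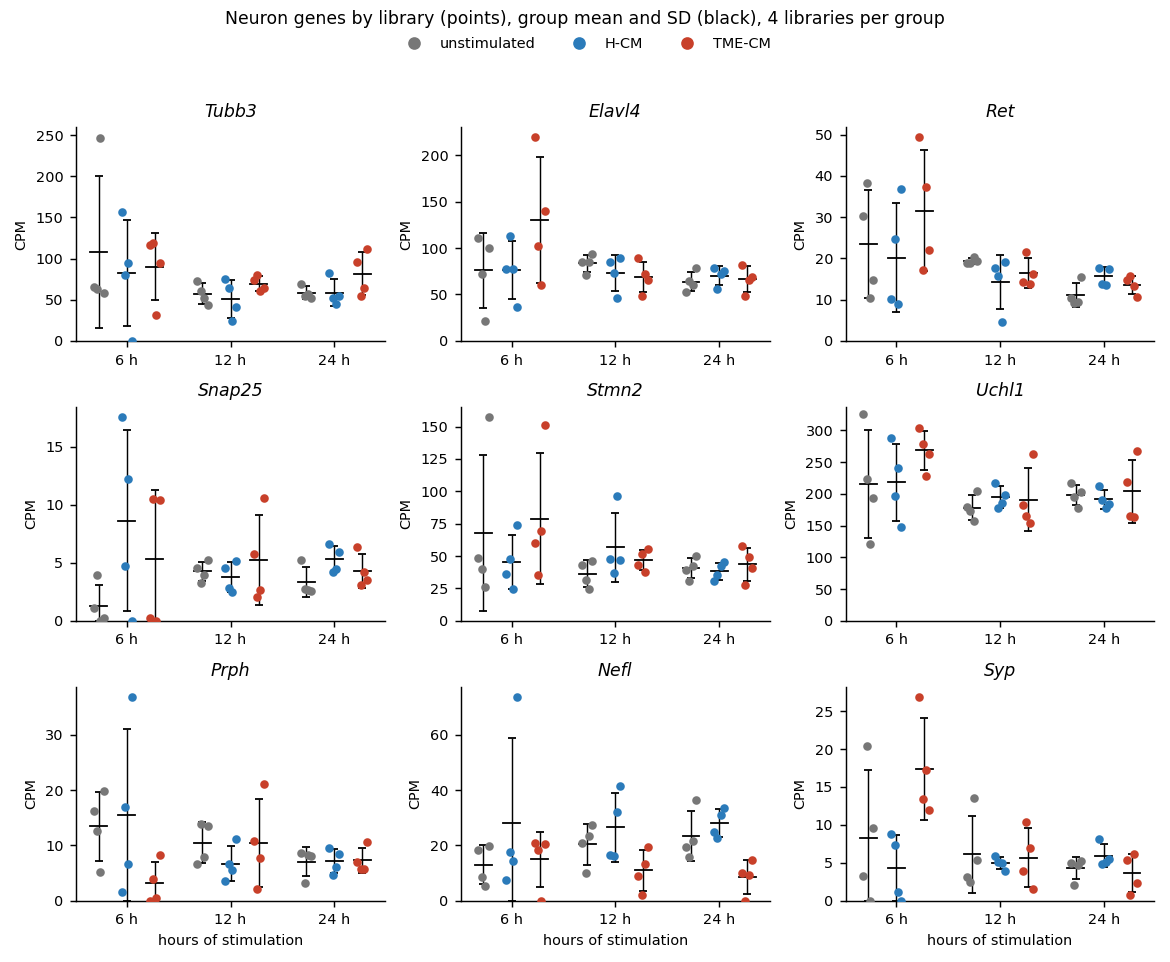
CPM of each of the 9 neuron genes (vertical axes, linear, from 0) in every library, by hours of stimulation and medium, where points are libraries and black bars are the mean and SD of the 4 libraries of a group, stopping at 0. The libraries of 6 h scatter most, and Nefl at 24 h is the panel in which the TME-CM points lie below all points of both other groups.

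The 9 genes together made up between 410 and 433 CPM in the 6 groups of 12 h and 24 h. Over these 24 libraries Uchl1 alone averaged 193 CPM, whereas Prph, Syp and Snap25 averaged 8.19, 5.09 and 4.36 CPM. In the same groups, 10 markers of enteric glia summed to between 221 and 260 CPM, led by Sox10, a transcription factor of the neural crest (65.7 CPM over the 24 libraries), and S100b (62.4 CPM). Gfap, a glial filament protein, was at 3.45 CPM. Genes used as markers of contractile and connective tissue cells gave far higher sums in the same libraries. In these groups, 6 smooth muscle markers summed to between 2040 and 7341 CPM and 6 fibroblast and mesenchyme markers to between 4550 and 6453 CPM. Acta2 (3065 CPM over the 24 libraries) and Col1a1 (3172 CPM) were the highest of them, whereas Myh11 (74.7 CPM) and Pdgfra (52.4 CPM) lay near Sox10. Which cells transcribed these genes was not tested. Epithelial markers were near 0 (group means of 5 markers together between 1.85 and 4.34 CPM). Glial markers were thus present, but the cultures were not free of transcripts used as markers of neurons, muscle or connective tissue.

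Whether the tumor medium changed the neuronal transcripts was tested with edgeR's quasi-likelihood test over all genes kept by a filter on low counts, with the Benjamini-Hochberg adjusted p set at 0.05. None of the 9 genes passed in any of the 16 comparisons. For TME-CM against H-CM, 0 of 9 were called at every time point, where 0.0972%, 1.89% and 5.4% of all genes tested were called at the earliest, middle and latest of them. For TME-CM against unstimulated cells, 0 of 9 were called, beside 0.454%, 4.41% and 9.52% of all genes at the 3 time points. For H-CM against unstimulated cells, 0 of 9 were called, beside 0%, 0.403% and 2.03%. DESeq2's Wald test also called 0 of the 144 pairs of gene and comparison, with no adjusted p for 4 of them. At an unadjusted p under 0.05, edgeR gave 13 of the 144 pairs, beside 9.19% of all genes and comparisons, and DESeq2 gave 16, beside 9.96%. The tools differed most for TME-CM from 6 h to 12 h, with 2 of 9 genes in edgeR (16% of all genes) and 5 of 9 in DESeq2 (21.3%). In TME-CM against H-CM the edgeR pairs numbered 0 of 9 at 6 h (6.07% of all genes had such a p), 1 at 12 h (10.6%) and 2 at 24 h (16%). The median log2 fold change of the 9 genes was 0.17 at 12 h and -0.07 at 24 h, against 0.00 at both times over all genes tested. In RNA from whole cultures, fewer neuronal cells and less RNA per cell cannot be told apart.

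**Figure D2:**
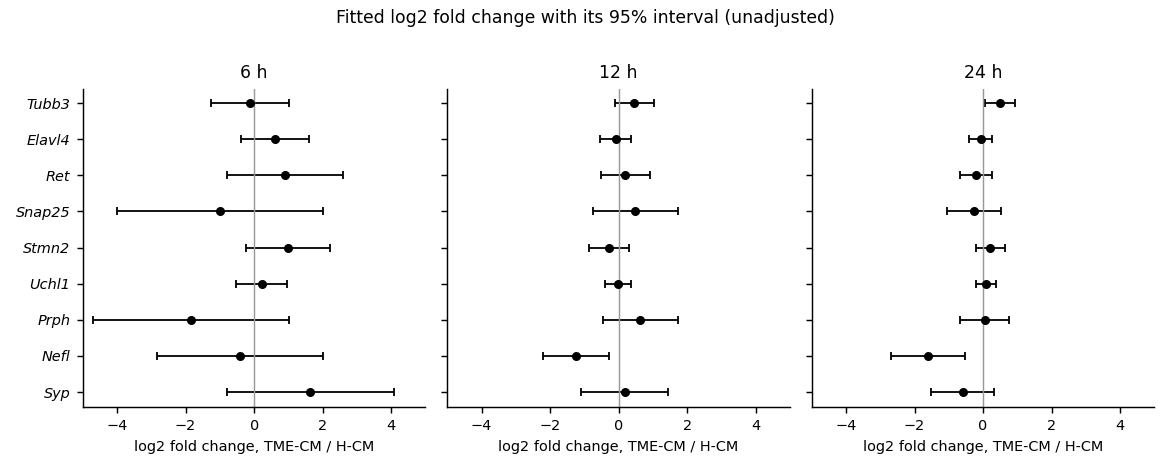
Fitted log2 ratios of TME-CM to H-CM (horizontal axes) for the 9 genes at each time point, with 95% intervals that are not adjusted for the number of genes. The intervals are widest at 6 h, where all 9 span 0, and the interval of Nefl lies below 0 at 12 h (-2.22 to -0.29) and 24 h (-2.68 to -0.54).

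Nefl, the light chain of the neurofilament and the subunit on which the others assemble (chr14:68083863-68089095, plus strand, GRCm38), had the largest fitted difference of the 9 genes between TME-CM and H-CM at 12 h and 24 h. At 24 h it measured 9.81, 0, 9.15 and 14.8 CPM in the TME-CM libraries, against 24.7, 22.7, 30.8 and 33.7 CPM with H-CM and 19.6, 15.9, 21.7 and 36.3 CPM in unstimulated cells. All 4 TME-CM values lay below all 8 others, a separation that 11.2% of all genes showed in one direction or the other for TME-CM against H-CM and 13.1% for TME-CM against unstimulated cells. The means were 8.43 ± 6.15, 28 ± 5.13 and 23.4 ± 8.98 CPM (SD, n = 4 each). The log2 fold change was -1.61 against H-CM (SE 0.49, edgeR adjusted p = 0.0903) and -1.38 against unstimulated cells (SE 0.49, edgeR adjusted p = 0.118), so neither difference passed. With no filter on low counts both passed, at an edgeR adjusted p of 3.86e-10 against H-CM and 9.68e-08 against unstimulated cells. The fitted log2 fold changes were then nearly the same, at -1.61 and -1.37. For Nefm, described below, the edgeR adjusted p against H-CM at 24 h also fell, from 0.0148 to 4.10e-13. The share of all genes called without the filter is not given here.

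The zero belonged to TME-CM 24 h replicate 2, whose depth allows up to 1.15 CPM (3 counts, counting error only). Without that library the difference was smaller and passed, at -1.32 against H-CM (edgeR adjusted p = 0.00312) and -1.09 against unstimulated cells (edgeR adjusted p = 0.00762). With each of the other 7 libraries left out in turn, the adjusted p against H-CM lay between 0.0641 and 0.225, and that against unstimulated cells between 0.0695 and 0.290.

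At 12 h Nefl was at 8.98, 2.0, 13.4 and 19.3 CPM with TME-CM, at 16.4, 16, 32.2 and 41.4 CPM with H-CM and at 20.9, 9.83, 23.3 and 27.2 CPM in unstimulated cells. The TME-CM and H-CM groups overlapped in 1 TME-CM library, the highest of its group. The log2 fold change was -1.25 (SE 0.46, edgeR adjusted p = 0.254), and it passed with no filter on low counts (edgeR adjusted p = 0.0108). H-CM and unstimulated cells differed by 0.36 (SE 0.45) at 12 h and 0.24 (SE 0.46) at 24 h, both with intervals that span 0. The change of the TME-CM and H-CM difference from 12 h to 24 h, tested as an interaction over 16 libraries, was -0.38 (95% interval -2.11 to 1.35, edgeR adjusted p = 1.0). At 6 h Nefl ranged from 0 to 73.6 CPM, and the highest of these values was 2 counts in the shallowest library.

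Nefm, the neurofilament medium chain and the neighbour of Nefl in the genome, was lower in TME-CM than in H-CM at both later time points. It measured 12.4, 3.84, 9.02 and 11.6 CPM with TME-CM at 24 h, against 19.3, 19.0, 44.7 and 54.0 CPM with H-CM and 10.5, 17.9, 21.2 and 29.2 CPM in unstimulated cells. The TME-CM values lay below all H-CM values and overlapped those of unstimulated cells. The log2 fold change of Nefm was -1.80 (SE 0.40, edgeR adjusted p = 0.0148) at 24 h and -1.46 (SE 0.35, edgeR adjusted p = 0.034) at 12 h. The call of Nefm held in 6 of 8 fits with 1 library left out at 24 h and in 3 of 8 at 12 h, with adjusted p up to 0.0540 without H-CM 24 h replicate 3 or TME-CM 24 h replicate 3 and up to 0.161 without H-CM 12 h replicate 4. At 12 h it was also lost without H-CM replicate 2 and without TME-CM replicates 1, 2 and 3. With all 36 libraries in a single model, Nefm was not called (edgeR adjusted p = 0.234 at 24 h and 0.554 at 12 h). Nefm was not called against unstimulated cells. The annotation places 1108 bases of the first exon of Nefl on an exon of a Nefm transcript of the opposite strand, 4125 bases from the 3′ end of Nefl. How strand was handled in counting is not given in the sources used here, and reads in that stretch could not be told apart.

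**Figure D3:**
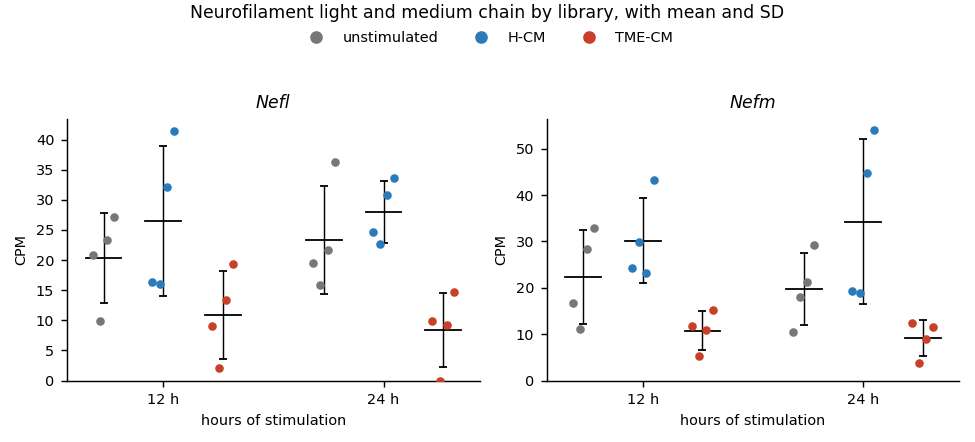
CPM of Nefl and Nefm (linear axes from 0) in each library at 12 h and 24 h, with points as libraries and bars as mean and SD (n = 4). TME-CM has the lowest mean in both panels at 24 h, with points from 0 to 14.8 CPM for Nefl and from 3.84 to 12.4 CPM for Nefm, where only Nefm was called against H-CM.

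Some markers of other cells moved in the same comparison. At 24 h, 4 of 6 smooth muscle markers (Acta2, Myh11, Cnn1 and Des) were called lower in TME-CM than in H-CM, beside 5.4% of all genes called. Actg2 (-0.48) and Tagln (-0.38) also had negative fitted log2 fold changes but were not called. None of the 6 markers was at 0. Their summed level ran from 1643 to 2386 CPM with TME-CM, from 3166 to 3888 CPM with H-CM and from 6842 to 7859 CPM in unstimulated cells. Of 3 markers of interstitial cells of Cajal, Kit and Ano1 were called lower in TME-CM than in H-CM, and Etv1 (-0.04) was not called. The sum of the 3 ran from 51.8 to 104 CPM against 101 to 159 CPM. Of 6 fibroblast and mesenchyme markers, Dcn, Pdgfra and Lum were called higher, and of 3 endothelial markers Kdr was called lower. Col1a1 (0.10), Col1a2 (0.12) and Wt1 (0.45) had positive fitted log2 fold changes that were not called. Of the endothelial markers, Pecam1 (-0.58) was not called and Cdh5 was not tested. None of the immune markers Ptprc, Ikzf1, Itgam, Csf1r and Cd68 was called. Krt18 (-1.67), the only epithelial marker tested, was not called either. Of the 10 glial markers, 8 could be tested and 0 were called, with sums from 213 to 292 CPM with TME-CM and from 239 to 276 CPM with H-CM. The part of these cells in the Nefl values was not tested.

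Tubb3 encodes the neuronal class of beta tubulin, a building block of axonal microtubules (chr8:123411424-123422015, plus strand). At 24 h it measured 95.9, 54.9, 64.7 and 112 CPM with TME-CM, 82.6, 52.5, 44.9 and 54.0 CPM with H-CM and 69.7, 54.8, 56.7 and 52.4 CPM in unstimulated cells. The highest 2 values were TME-CM libraries, and the lowest TME-CM value lay within both other groups. The log2 fold change was 0.49 against H-CM (95% interval 0.05 to 0.93, edgeR adjusted p = 0.244) and 0.50 against unstimulated cells (95% interval 0.06 to 0.93, edgeR adjusted p = 0.184). Each difference passed in 1 of 8 fits with a library left out. Without H-CM 24 h replicate 1 the difference from H-CM was 0.71 (edgeR adjusted p = 0.0402), and without TME-CM 24 h replicate 2 that from unstimulated cells was 0.63 (edgeR adjusted p = 0.0436). In the other fits the edgeR adjusted p lay between 0.0714 and 0.555 against H-CM and between 0.122 and 0.509 against unstimulated cells. Fitted differences of Tubb3 and Nefl had opposite signs at both later times. At 12 h Tubb3 was at 69.5 ± 9.23 CPM with TME-CM and 51.1 ± 23.0 CPM with H-CM (SD, n = 4 each).

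Stmn2, a stathmin that regulates microtubules in growing axons (chr3:8509360-8561606, plus strand), was at 57.4, 27.6, 49.2 and 40.4 CPM with TME-CM at 24 h and at 30.9, 35.0, 42.3 and 45.1 CPM with H-CM. The groups overlapped, with a log2 fold change of 0.21 (95% interval -0.20 to 0.63). At 12 h its highest value, 96.3 CPM, was in H-CM replicate 3, and the other 3 libraries of that group lay between 36.7 and 47.3 CPM. H-CM exceeded unstimulated cells by 0.64 at 12 h (SE 0.29, edgeR adjusted p = 0.838), and by 0.27 (edgeR adjusted p = 0.999) without H-CM 12 h replicate 3. Prph, or peripherin, the intermediate filament of peripheral neurons (chr15:99055174-99058978, plus strand), was at 6.92, 5.75, 5.79 and 10.6 CPM with TME-CM at 24 h and at 9.57, 4.70, 6.12 and 8.42 CPM with H-CM. Its log2 fold change was 0.05 (95% interval -0.66 to 0.77). Prph was counted 15 to 66 times per library at 24 h.

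Snap25 (chr2:136713453-136782428, plus strand), a membrane protein of the complex that fuses vesicles with the synapse, was counted 8 to 44 times per library at 24 h. It measured 6.35, 3.07, 4.17 and 3.52 CPM with TME-CM, 6.58, 4.21, 4.48 and 5.94 CPM with H-CM and 5.27, 2.72, 2.68 and 2.60 CPM in unstimulated cells. The ranges overlapped, and the difference between TME-CM and H-CM was -0.26 on the log2 scale (95% interval -1.05 to 0.52). Syp, or synaptophysin, a protein of synaptic vesicles (chrX:7638471-7653256, plus strand), measured 5.34, 0.767, 6.19 and 2.35 CPM with TME-CM at 24 h, against 8.18, 4.86, 5.14 and 5.45 CPM with H-CM. The low value of 0.767 CPM was 2 counts in TME-CM replicate 2, and the log2 fold change was -0.60 (95% interval -1.52 to 0.32), or -0.35 (SE 0.40) without that library. At 6 h the 4 TME-CM values of Syp (26.8, 13.4, 17.3 and 12.0 CPM) lay above all H-CM values (8.75, 7.39, 1.11 and 0 CPM), a separation shown by 4.13% of all genes. The fitted difference at 6 h was 1.64 (SE 1.19, edgeR adjusted p = 0.911), and 1.61 (SE 1.27) without the shallowest library, which held the H-CM zero. An annotated antisense transcript, Gm14703, shares 875 exon bases with Syp and starts 545 bases from its 3′ end, so that reads of the pair could be confused if strand was not used.

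Elavl4, which encodes the neuronal RNA-binding protein HuD (chr4:110203722-110351909, minus strand), and Uchl1, the ubiquitin hydrolase also called PGP9.5 (chr5:66676091-66687234, plus strand), had the narrowest intervals. Elavl4 was at 81.8, 47.9, 66.1 and 69.3 CPM with TME-CM at 24 h and at 78.4, 55.4, 72.1 and 74.8 CPM with H-CM. The groups overlapped, and the log2 fold change was -0.07 (95% interval -0.41 to 0.27) at 24 h and -0.08 (95% interval -0.54 to 0.37) at 12 h. Uchl1 was at 218, 166, 164 and 268 CPM with TME-CM at 24 h and at 212, 190, 178 and 185 CPM with H-CM. TME-CM held both the highest and the lowest of these 8 values. Its log2 fold change was 0.09 (95% interval -0.21 to 0.39) at 24 h and -0.03 (95% interval -0.41 to 0.35) at 12 h. Uchl1os, an annotated transcript of the opposite strand, shares 295 exon bases with Uchl1, 10736 bases from its 3′ end.

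Ret, the receptor of the glial cell line-derived neurotrophic factor family and the gene on which enteric nervous system formation depends (chr6:118151745-118197718, minus strand), was at 14.7, 15.7, 13.2 and 10.6 CPM with TME-CM at 24 h. With H-CM it was at 17.8, 13.8, 13.7 and 17.3 CPM, and in unstimulated cells at 10.3, 9.29, 9.45 and 15.6 CPM. The values of all 3 groups overlapped, although 3 of 4 unstimulated libraries lay below every library of both media. TME-CM differed from H-CM by -0.21 on the log2 scale (95% interval -0.68 to 0.27), and H-CM from unstimulated cells by 0.46 (95% interval -0.01 to 0.94, edgeR adjusted p = 0.491).

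Of 15 genes of the Ret and endothelin pathways, 12 could be tested at 24 h. In TME-CM against unstimulated cells 4 were higher and 0 lower, beside 9.52% of all genes called, of which 613 of 1210 were higher. The 4 were the co-receptor genes Gfra2 (log2 fold change 1.15) and Gfra1 (0.64), the endothelin receptor gene Ednrb (1.08), and the ligand gene Artn (1.71). The call of Artn (edgeR adjusted p = 0.0493) held in only 2 of 8 fits with a library left out, those without TME-CM replicate 4 and without unstimulated replicate 1. The median of the 12 was 0.05, against 0.00 over all genes. Gfra2, the co-receptor for neurturin, rose from 9.04 ± 1.11 CPM in unstimulated cells to 16.6 ± 1.80 CPM with H-CM and 20.01 ± 5.18 CPM with TME-CM (SD, n = 4 each). It was also called in H-CM against unstimulated cells (0.86, edgeR adjusted p = 0.041), a call lost in all 8 fits with a library left out (edgeR adjusted p of Gfra2 up to 0.138). Between the 2 media, where 5.4% of all genes were called, Edn3, the ligand of Ednrb, was the only called gene of the list. It was lower in TME-CM (-1.26, edgeR adjusted p = 0.0423). The call of Edn3 held in 3 of 8 fits with a library left out. Without H-CM 24 h replicate 3 the adjusted p of Edn3 was 0.257 with edgeR. Ngfr, the low-affinity neurotrophin receptor and the highest gene of the list over the 36 libraries, was not called between media at any time. Over the 24 libraries of 12 h and 24 h, Ece1, the endothelin-converting enzyme gene, was higher (277 against 198 CPM).

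Over time, 0 of 9 genes were called from 6 h to 12 h or from 12 h to 24 h in any medium. The shares of all genes called were 0.513% and 0% in unstimulated cells, 2.96% and 0% with H-CM, and 1.53% and 0.0166% with TME-CM. From 6 h to 12 h the fitted differences were negative for 6, 7 and 8 of the 9 genes in unstimulated, H-CM and TME-CM cells. Some were close to 0, as for Snap25 with TME-CM (-0.004), and the libraries of 6 h included the shallowest. The share of all genes with a negative difference is not given here. The median log2 fold change over all genes was -0.01 in unstimulated cells and 0.07 with H-CM. The median log2 fold change of the 9 genes with TME-CM was -0.52, against 0.02 over all genes. Elavl4 with TME-CM went from 220, 102, 60.0 and 140 CPM at 6 h to 88.8, 48.8, 72.2 and 65.0 CPM at 12 h, a log2 fold change of -0.94 (SE 0.34, edgeR adjusted p = 0.172) that passed without TME-CM 6 h replicate 3 (edgeR adjusted p = 0.0454). No fit with another library left out passed (edgeR adjusted p of Elavl4 up to 0.378). Its values at the 2 times overlapped. Tubb3 with H-CM gave the lowest adjusted p over time, from 156, 80.2, 94.4 and 0 CPM at 6 h to 75.0, 64.7, 24.2 and 40.7 CPM at 12 h (log2 fold change -1.04, SE 0.34, edgeR adjusted p = 0.095), and passed without H-CM 12 h replicate 1 (edgeR adjusted p = 0.0407). The zero was again the shallowest library, without which the difference was -1.11 (edgeR adjusted p = 0.0657). In the remaining fits with a library left out the edgeR adjusted p of Tubb3 ran up to 0.335. From 12 h to 24 h, Ret in unstimulated cells was lower in all 4 libraries of 24 h (9.29 to 15.6 CPM) than in all 4 of 12 h (18.8 to 20.4 CPM), as 4.38% of all genes were separated in either direction. Its log2 fold change was -0.81 (SE 0.37, edgeR adjusted p = 1.0). In the test of whether the TME-CM and H-CM difference changed from 12 h to 24 h, 0 of 9 genes were called, beside 0% of all genes. Other listed genes were called from 6 h to 12 h. Map2, a microtubule-associated protein gene of neurons, was lower at 12 h with H-CM (-1.90, edgeR adjusted p = 0.0012, called in 8 of 8 fits with a library left out). Syn2, a synapsin gene, was higher with H-CM (1.63, edgeR adjusted p = 0.0212), a call lost without H-CM 12 h replicate 2 or H-CM 6 h replicate 1 or 3. Ece1 was higher in unstimulated cells (1.48) and with H-CM (1.18), the latter lost without H-CM 6 h replicate 1 or 3. Ednrb (-1.76) and Ngfr (-1.17) were lower with TME-CM, and leaving out any 1 of the 4 TME-CM 12 h libraries ended the call of Ednrb, as leaving out replicate 1 or 2 of them did for Ngfr.

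The 9 genes were set beside 94 further neuronal genes in 5 lists. Of these 94, 76 were tested at 24 h, and 5 were higher and 6 lower in TME-CM than in H-CM, where 349 and 337 of all 12713 genes were called in those directions. At 12 h, 1 was higher and 3 were lower of 77, beside 1.89% of all genes called in either direction. Against unstimulated cells, 7 were higher and 6 lower at 24 h (9.52% of all genes called), and 3 higher and 5 lower at 12 h (4.41%). Of 58 calls of listed genes in these lists, the Ret and endothelin list and the relatives of the 9 genes, 47 were lost with all 36 libraries in a single model, among them 17 of the 18 calls between TME-CM and H-CM, all but Gal at 24 h. The median difference of the neuronal genes tested between TME-CM and H-CM was -0.13 at 12 h and -0.04 at 24 h on the log2 scale.

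**Figure D4:**
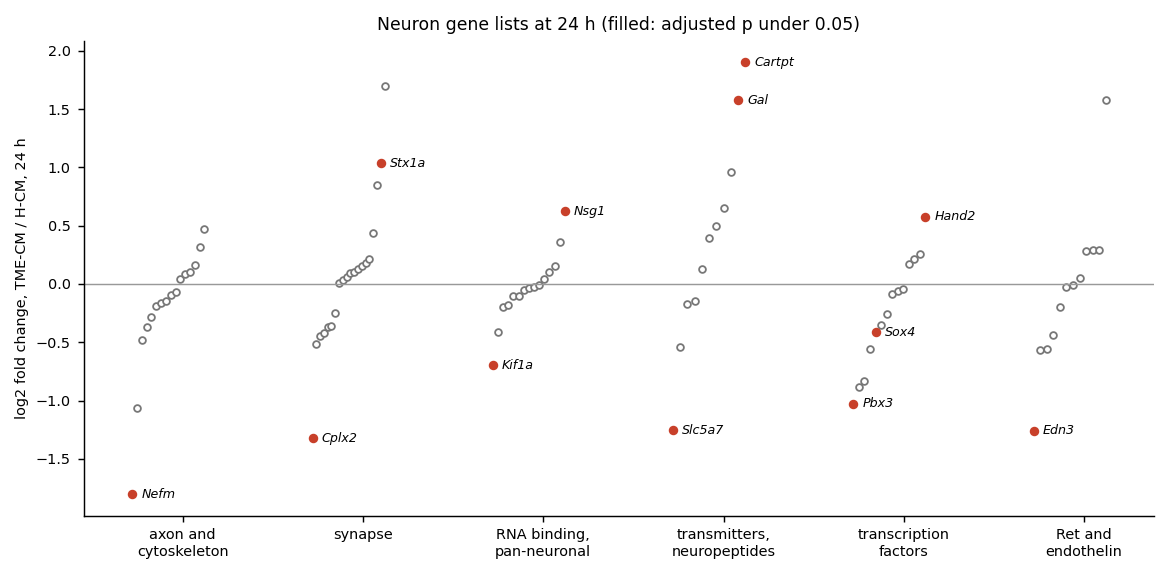
Fitted log2 ratios of TME-CM to H-CM at 24 h (vertical axis) for each tested gene of 5 neuronal lists and the Ret and endothelin list, ordered by value within a list. Filled, named points are genes with an adjusted p under 0.05, on both sides of 0, from Nefm at -1.80 to Cartpt at 1.90.

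The transmitter and neuropeptide list held the called genes with the highest positive differences. Cartpt, which encodes a neuropeptide precursor of enteric neurons, was at 40.5, 52.2, 35.3 and 19.8 CPM with TME-CM at 24 h and at 10.4, 11.2, 8.96 and 7.92 CPM with H-CM, with no overlap. The difference between TME-CM and H-CM was 1.48 on the log2 scale (SE 0.30, edgeR adjusted p = 0.00922) at 12 h and 1.90 (SE 0.25, edgeR adjusted p = 4.64e-05) at 24 h. The call of Cartpt was lost at 12 h without H-CM replicate 4 or TME-CM replicate 1 (edgeR adjusted p up to 0.0519), and held in 8 of 8 such fits at 24 h. Gal, the precursor of galanin, was at 130, 145, 72.5 and 35.2 CPM against 27.3, 38.1, 36.5 and 22.3 CPM, overlapping in 1 library, with a log2 fold change of 1.58 (SE 0.40, edgeR adjusted p = 0.0384) that held in 2 of 8 fits with a library left out, those without TME-CM replicates 3 and 4 (adjusted p up to 0.0995 in the others). Vip, the vasoactive intestinal peptide of inhibitory motor neurons, was called against unstimulated cells at 24 h (1.13, edgeR adjusted p = 0.0133), a call lost without unstimulated replicate 1 or 2 (edgeR adjusted p up to 0.0558). Slc5a7, the choline transporter of cholinergic neurons, was lower in TME-CM at 24 h, at 8.84 ± 2.20 CPM against 21.6 ± 8.54 CPM with H-CM (SD, n = 4 each, log2 fold change -1.26, edgeR adjusted p = 0.00849). Of the 21 genes of this list 11 were tested at 24 h. Of these, 2 were higher and 1 lower in TME-CM than in H-CM, beside 5.4% of all genes called. Against unstimulated cells, Cartpt (2.13), Gal (1.97) and Slc5a7 (-1.28) were also called at 24 h.

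**Figure D5:**
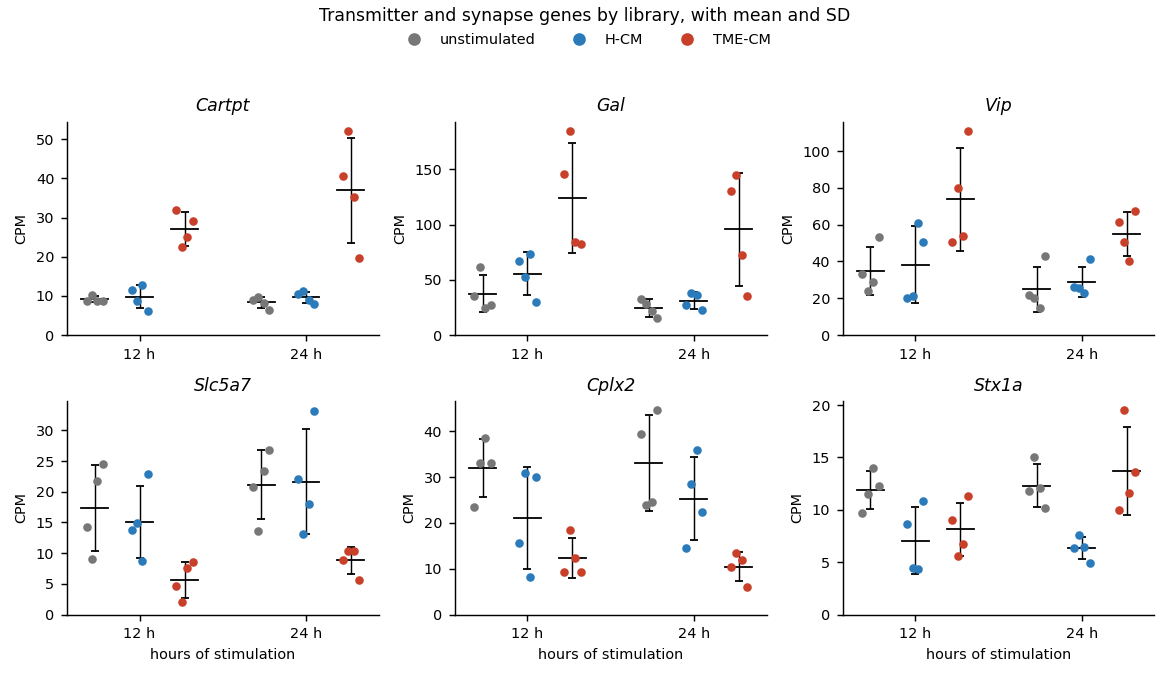
CPM of 3 neuropeptide genes, the choline transporter gene Slc5a7 and 2 synapse genes in each library at 12 h and 24 h (linear axes from 0, points are libraries, bars are mean and SD, n = 4). Cartpt at 24 h separates TME-CM (19.8 to 52.2 CPM) from both other groups, and Stx1a at 24 h is lowest with H-CM.

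In the synapse list, Cplx2, a complexin of vesicle release, was lower in TME-CM than in H-CM at 24 h (10.5 ± 3.20 against 25.3 ± 9.10 CPM, SD, n = 4 each, log2 fold change -1.33, edgeR adjusted p = 0.00782). Stx1a, which encodes the syntaxin that pairs with Snap25, was higher (13.7 ± 4.20 against 6.35 ± 1.09 CPM, log2 fold change 1.04, edgeR adjusted p = 0.017), with unstimulated cells at 12.3 ± 2.05 CPM. The call of Cplx2 was lost without H-CM replicate 3, and that of Stx1a without H-CM replicate 3 or 4 or TME-CM replicate 2. Snap25 itself had an interval spanning 0 in that comparison. Syt4 and Syn2 were called higher against unstimulated cells at 24 h (0.61 and 0.87), and Syt4 was also called in H-CM against unstimulated cells (0.86). Syt11, the highest gene of the list, was not called.

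In the cytoskeleton list, Nefm was the only gene called between the media at 24 h, and Stmn4, a neuronal stathmin, was called beside it at 12 h (-1.44, edgeR adjusted p = 0.0331). Stmn4 was at 8.40 ± 1.56 CPM with TME-CM, 22.9 ± 7.86 CPM with H-CM and 11.9 ± 3.95 CPM in unstimulated cells (SD, n = 4 each), and its call was lost in 6 of 8 fits with a library left out, all but those without H-CM replicates 2 and 4 (edgeR adjusted p up to 0.0998). Dpysl3 was lower with TME-CM than in unstimulated cells at 24 h (-0.58), and the highest gene, Basp1, was not called. Of the pan-neuronal list, Kif1a, a kinesin of axonal transport, was lower (-0.70) and Nsg1 higher (0.62) in TME-CM than in H-CM at 24 h, and the call of Nsg1 was lost without H-CM replicate 3 or 4 or TME-CM replicate 1. The adhesion genes Ncam1 and Thy1, which glia and other cells also express, were lower than in unstimulated cells with both media at 24 h (Ncam1 -0.78 with TME-CM and -0.77 with H-CM, Thy1 -1.55 and -1.53). The call of Ncam1 with H-CM held in 3 of 8 fits with a library left out. Among transcription factors, Hand2 was higher (0.58) and Pbx3 (-1.03) and Sox4 (-0.41) were lower in TME-CM than in H-CM at 24 h, and Sox4 was higher with H-CM than in unstimulated cells (0.60). The call of Sox4 between the media held in 3 of 8 fits with a library left out. Pbx3 was also lower at 12 h (-0.92), a call that held in 3 of 8 such fits.

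Relatives of the 9 genes that many cell types express were set beside them. Tubb6, a broadly expressed beta tubulin, was at 216 ± 14.6 CPM with TME-CM, 136 ± 6.83 CPM with H-CM and 208 ± 21.8 CPM in unstimulated cells at 24 h (SD, n = 4 each). It was called in TME-CM against H-CM (0.67, edgeR adjusted p = 0.000861), where Tubb3 was not, and the difference between the genes was not tested. Of the intermediate filament genes, Nes and Vim were lower with TME-CM than in unstimulated cells at 24 h (-0.59 and -0.46), and neither was called against H-CM. Syngr1, a relative of Syp, was lower in TME-CM than in H-CM (-0.89, edgeR adjusted p = 0.00706). Reads that mapped to several loci had been discarded, so that stretches identical between tubulins do not count for either gene.

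The 9 genes varied only loosely together. The 24 libraries of 12 h and 24 h were used, in each of which all genes share a depth and a scaling factor. Correlations of log2 CPM after subtraction of group means had a median of 0.20 over 36 pairs. They ran from -0.41 (Ret with Stmn2) to 0.66 (Snap25 with Uchl1), with 14 pairs above 0.3 and 3 below -0.3. The same measure over other gene pairs is not given here. The genes whose log2 CPM was most like that of Nefl over these libraries, among 10035 genes averaging 5 CPM or more, were Megf10 (Pearson r = 0.90), Figf (0.86) and Flrt2 (0.85). For Tubb3 they were Dcxr (0.80), Ranbp1 (0.80) and Pcbp2 (0.78). For Elavl4 they were Zfp451, Reep3 and Mdn1 (0.79 to 0.81), for Stmn2 Rdh14, Gle1 and Cdh19 (0.76 to 0.80), and for Uchl1 Smu1, Smpd3 and Mmd (0.68 to 0.71). For Ret they were Otud5, Gpd1 and Stmn3 (0.78 to 0.82), for Prph Gpn3, Slc30a5 and Wdr92 (0.73 to 0.75), and for Syp Kiz, Psd3 and Zfp618 (0.70 to 0.83). Snap25, under 5 CPM, was not compared, and none of the other 8 genes appeared among the 3 most like genes of another.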

How the data were processed

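RNA of 36 libraries was sequenced with the QuantSeq 3′ mRNA kit. The deposited values are raw counts per gene symbol. After adapter removal (fastq-mcf), the authors placed reads on mm10 by HISAT2, kept uniquely placed reads and made counts per gene by HT-seq Count. Per the submitters' processing notes, FastQC 0.11.7 and SAMtools 1.5 were used. The annotation and strand setting are not given in the sources used here. Groups were taken from sample titles, and the labels give no batch.

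The tests were run with edgeR 4.0.16 in R 4.3.3 (TMM, filterByExpr with a minimum count of 10, robust quasi-likelihood test, 1 mean per group). Each time point was fitted over 12 libraries, time over the 12 libraries of a medium, and the interaction over 16. Benjamini-Hochberg adjusted p under 0.05 was called. DESeq2 1.42.0 was an alternative. Intervals used the test's degrees of freedom. Positions are from GENCODE M21 (GRCm38, the assembly of mm10). No pair of libraries within a group was near-identical; pairs across groups were not compared.

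Members and lists were chosen with earlier results of these data known. Named were the 9 genes, the listed genes called in a comparison (up to 5 per list and comparison with the largest change), the highest gene of each list over 36 libraries, and the 3 genes most like each member with a mean of at least 5 CPM, which Snap25 did not reach. Tests of the marker lists of other cells are given only for TME-CM against H-CM at 24 h. Alternatives were DESeq2's size factors, no filter, DESeq2's test, only the groups compared, all 36 libraries, a replicate block, no Yam1, and each library left out in turn.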

Additional observations from a re-analysis of the deposited data

Results flagged for a closer look

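In groups of 4 libraries, a value was singled out where its gap to the nearest other value, as a share of the range of its group, exceeded Dixon's 95% critical value. Of 189 groups (the 9 neuron genes and the listed neuronal genes called between the media), 15 had such a value, 10 of them at 6 h, and chance gives about 1 in 20. At 6 h these were Tubb3 at 247 CPM in unstimulated replicate 3, Stmn2 at 157 CPM in unstimulated replicate 4, Nefl at 73.6 CPM in H-CM replicate 4 (2 counts) and Nefl at 0 CPM in TME-CM replicate 3. They also included Cartpt at 62.9 CPM, Cplx2 at 86.7 CPM and Stmn4 at 46.8 CPM, all in TME-CM 6 h replicate 3, with Gal at 0 CPM in H-CM replicate 4, Nsg1 at 52.9 CPM in unstimulated replicate 4 and Stx1a at 57.8 CPM in unstimulated replicate 3. At 12 h Cartpt was highest at 10.2 CPM in unstimulated replicate 2. At 24 h Ret was highest at 15.6 CPM in unstimulated replicate 4, Snap25 was highest at 5.27 CPM in unstimulated replicate 1, Prph was lowest at 3.20 CPM in unstimulated replicate 2, and Nsg1 was highest at 58.1 CPM in TME-CM replicate 1.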

How the results depend on the processing

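Of the 16 counts of called neuron genes, 16 stayed at 0 with DESeq2's size factors, with DESeq2's test and without Yam1, and so did the 15 that could be refitted on only the groups compared and, chosen after seeing the data, the 5 fitted without the shallowest library. Without the filter on low counts, Nefl was called in TME-CM against H-CM at 12 h and 24 h (1 gene each), Nefl and Tubb3 against unstimulated cells at 24 h (2 genes), and Tubb3 in H-CM from 6 h to 12 h (1 gene). With all 36 libraries in one model, 1 gene was called in TME-CM from 6 h to 12 h (Elavl4). With 1 library left out, the counts ranged from 0 to 1 in TME-CM against H-CM at 24 h, in H-CM from 6 h to 12 h and in TME-CM from 6 h to 12 h, and from 0 to 2 in TME-CM against unstimulated cells at 24 h, the libraries being those named beside Nefl, Tubb3 and Elavl4. The cause was not tested. The shares of all genes called without the filter, with all 36 libraries or with 1 library left out are not given here. These calls can therefore not be set beside a background. Of 58 calls of listed genes, 47 were lost with all 36 libraries in one model, including that of Cartpt in TME-CM against H-CM at 24 h (adjusted p = 0.0547). Calls at 24 h of TME-CM against H-CM that 1 left-out library ended, beside those named above, were Cplx2 (without H-CM replicate 3), Nsg1 (H-CM replicates 3 and 4, TME-CM replicate 1), Stx1a (H-CM replicates 3 and 4, TME-CM replicate 2), Sox4 (H-CM replicates 2, 3 and 4, TME-CM replicates 3 and 4) and Edn3 (H-CM replicates 2 and 3, TME-CM replicates 1, 3 and 4), with Pbx3 at 12 h (H-CM replicates 2 and 4, TME-CM replicates 1, 2 and 4). Against unstimulated cells at 24 h they were Artn (6 of 8 libraries), Syt4 and Vim (2 of 8 each) with TME-CM, and Ncam1 (5 of 8) with H-CM.

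The replicate numbers were not taken as pairs, since in none of 15 comparisons did every same-numbered pair of libraries deviate together with a correlation over 0.1 (range -0.16 to 0.23). With the replicate block, 1 gene was called in each of TME-CM against H-CM at 12 h (Nefl, adjusted p = 0.0361), at 24 h (Nefl, adjusted p = 0.0110), TME-CM against unstimulated cells at 24 h (Nefl, adjusted p = 0.0233) and H-CM from 6 h to 12 h (Tubb3, adjusted p = 0.0459), and 0 in the other 12. With the block, 207 of 12156, 675 of 12713, 1163 of 12713 and 318 of 12029 genes were called, in the order above. In H-CM from 12 h to 24 h every library deviated most like its own number, as a hint from the data only.

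Of 131 fitted differences with an unadjusted p of 0.05 or more, 59 changed sign in a fit with 1 library left out and 11 under another alternative, and 0 were called. Leaving Yam1 out raised 41 of 81 group means by more than their SD, since it removes counts from the total. A count of 0 in TME-CM 24 h replicate 2 allows up to 1.15 CPM. The fit of 6 h had a common dispersion of 0.572, that of 12 h 0.122 and that of 24 h 0.0455.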
